A study of Homo sapiens with 6 samples.

Results

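The RAB, ARF and ARL genes encode small GTPases that direct membrane traffic. They were examined in T24, a human bladder cancer cell line of urothelial origin, with and without MAP30, a ribosome-inactivating protein of bitter melon. Members were all genes named RAB with a number and at most a letter, ARF1 to ARF6, or ARL with a number and at most a letter, on probe sets of a single gene. This gave 71 of the 18132 genes measured: 57 RAB, 5 ARF and 9 ARL genes, on 201 probe sets. These are not all genes of such names: ARL genes with a letter after the number, among others, were not analysed here. Where a gene had several probe sets, their mean was used. The family was selected on measured values: ARL14 had risen and RAB40B had fallen strongly in this same comparison. Both are therefore described without a test and left out of the counts below, which cover the other 69 members.

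The control group was 3 arrays of T24 cells labelled as normal. The MAP30 group was 3 arrays of T24 cells with MAP30 (10 µg/ml, 48 hours). Both groups were grown in DMEM with fetal bovine serum; a vehicle for the control cells, and their time of collection, are not stated in the sources used here. All arrays came from the same line and nothing says that the arrays hold separate cultures, so the p-values reflect array-to-array spread alone, which may be technical. The deposited log values had been set to a median of 0 over the 6 arrays for each probe set. Each value below is thus relative to that median, and levels of different genes cannot be compared. Whether a gene, or a marker of urothelium, lay above background could not be seen either. The base of the logarithm was taken to be 2. The number of arrays limits the precision. The 3' to 5' log2 ratio of RNA-quality probe sets was higher with MAP30 by 0.158 for ACTB (SD 0.021 in control and 0.007 with MAP30) and by 0.043 for GAPDH (SD 0.013 and 0.008; n = 3 arrays each). The part of this shift in the results was not tested.

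As background, RAB, ARF and ARL proteins switch between a membrane-bound form with GTP and an inactive form with GDP. Exchange factors load GTP, GTPase-activating proteins end the active state, and effectors such as tethers, coats and motor adaptors bind the active form. RAB proteins are held on membranes by prenyl groups and carried through the cytosol by GDI and escort proteins, whereas ARF proteins use myristate and recruit coats such as COPI.

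The family moved in both directions. By limma, at an adjusted p threshold of 0.05 (Benjamini-Hochberg, over all 18132 genes), 21 of the 69 members were higher with MAP30 and 33 were lower, and 15 did not pass. Over all genes 26.9% were higher and 30.6% lower. The comparison is the one through which the family was chosen, so nothing is read from the shares. The same holds for the counts by role and by regulator list below. Rises of at least 1.5-fold were met by 7 members and falls by 11, against 11.2% and 10.9% of all genes. All 3 MAP30 arrays lay above all 3 control arrays in 23 members (29.1% of all genes) and below them in 31 (33.6%). The median log2 fold change of the 69 was -0.10, and that of all genes -0.019. These counts depend on scaling. With arrays centred on hybridization controls, which are spiked-in RNAs, 12 members were higher and 43 lower at a median of -0.31. With poly-A controls, another spiked-in set, 30 were higher and 21 lower at a median of 0.062. The medians of all genes moved likewise, to -0.23 and 0.14. Over all genes, rises were 46.8% of calls as deposited, 21.1% with the hybridization controls and 70.3% with the poly-A controls. These shares stand beside the recounts by role and by list below. Of the 21 higher calls 12 were kept under all 4 scalings tried, and of the 33 lower calls 21. All 20 genes of the 10 largest rises and falls below are among those. These 20 were taken from members that passed with groups apart, so their lack of overlap is by selection.

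**Figure D1:**
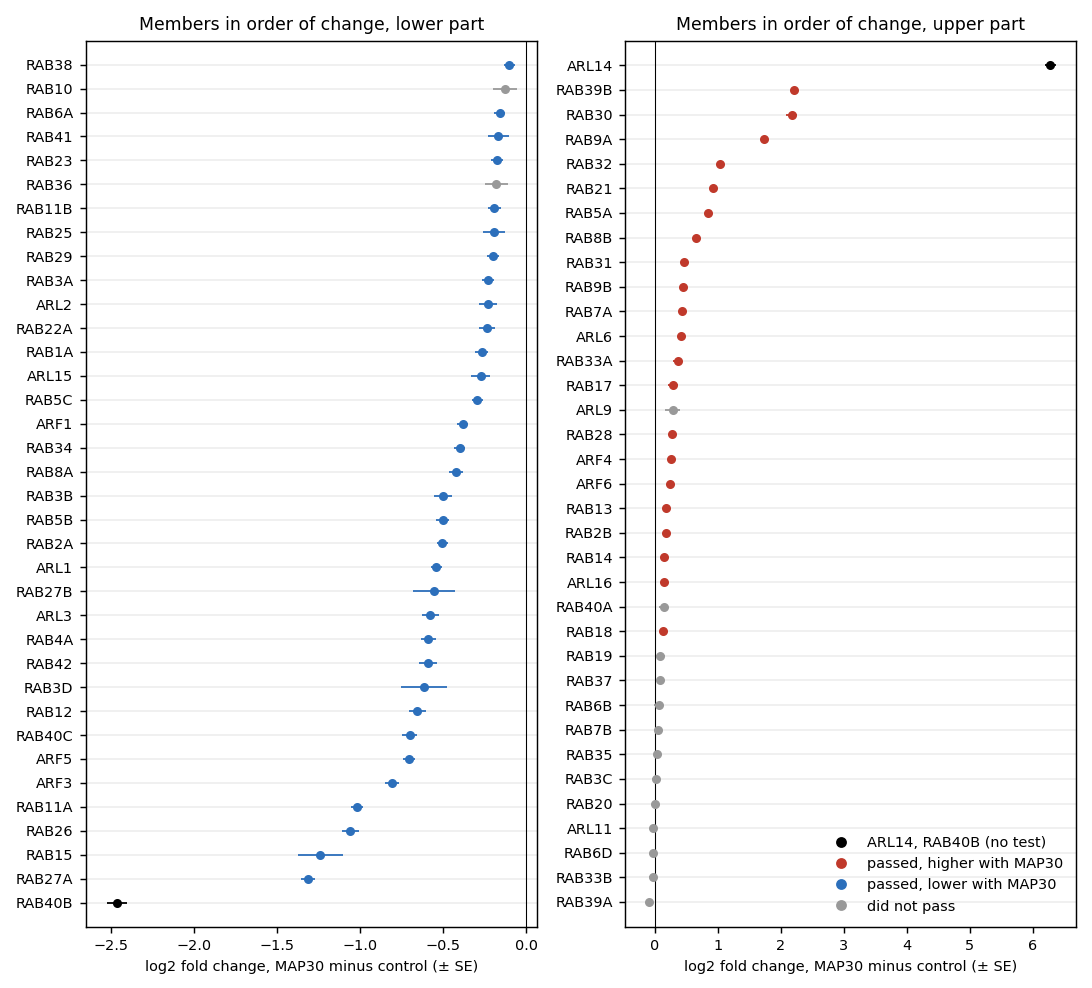
Log2 fold change of all 71 members, MAP30 minus control, with the SE from limma as bars (n = 3 arrays per group), in order of size. The left panel runs from RAB40B at -2.46 to RAB38 at -0.10 and the right from RAB39A at -0.088 to ARL14 at 6.28; the panels have different axes. Calls are on the deposited scale, and the 9 rises below RAB33A and the 12 falls from ARL15 upward were lost under some scaling.

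ARL14 and RAB40B each rest on 1 probe set. ARL14, an ARF-like GTPase that is known to move MHC class II vesicles in dendritic cells, was at -3.19, -3.04 and -3.42 in the control arrays and 3.04, 3.07 and 3.06 in the MAP30 arrays. The MAP30 arrays were tightly grouped (SD 0.014) and far from the controls (SD 0.191). The difference was 6.28 ± 0.09 SE, or 77.7-fold higher with MAP30. RAB40B, which joins a RAB domain to a SOCS box and serves as a substrate receptor of a cullin-5 ubiquitin ligase, was at 1.21, 1.17 and 1.19 in the control arrays and -1.41, -1.24 and -1.17 in the MAP30 arrays. All MAP30 arrays were lower, with a difference of -2.46 ± 0.06 SE, or 5.51-fold lower. Both kept their sign in every alternative run, and quantile normalization gave 4.93 and -3.31. The next largest changes in the family were 4.64-fold upward and 2.48-fold downward.

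RAB40C, the relative of RAB40B with the same domains, was also lower. It stood at 0.28, 0.27 and 0.35 in the control arrays and -0.37, -0.36 and -0.48 in the MAP30 arrays, a difference of -0.70 on the log2 scale (1.63-fold). Its 3 probe sets were all lower, at -1.05 to -0.38. RAB40A, the X-linked relative, stood at 0.14 and did not pass (adjusted p = 0.134 by limma). It passed at 0.30 with poly-A-control centring and at 0.20 without control replicate 2.

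**Figure D2:**
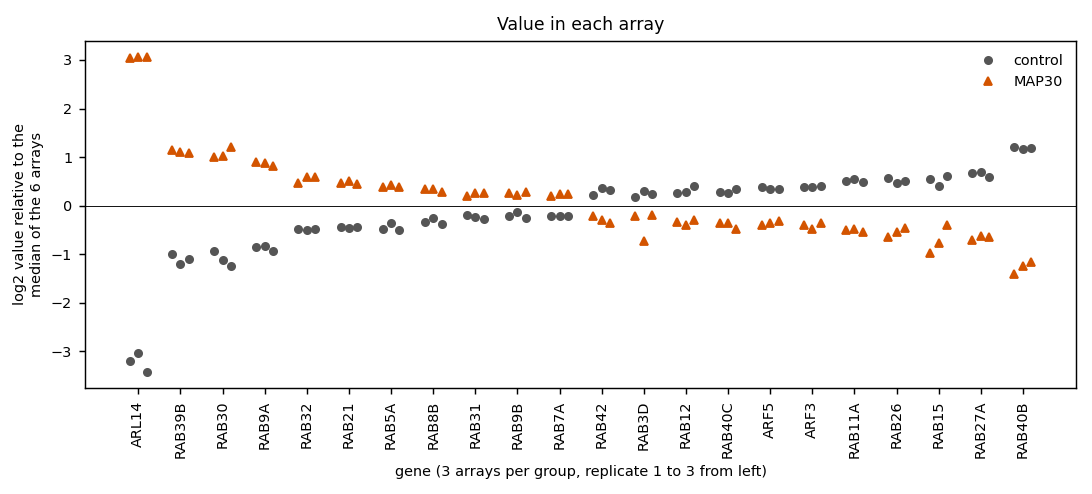
Deposited log2 value in each of the 3 control arrays (circles) and 3 MAP30 arrays (triangles), relative to the median of the 6 arrays, for ARL14, RAB40B, the 10 largest other rises and the 10 largest other falls. The rises and falls were taken only from members that passed with groups that do not overlap, so the lack of overlap is by selection. The widest spread is in the MAP30 arrays of RAB3D and RAB15.

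Sequence upstream of start sites was taken from RefSeq (GRCh38.p14), which matched 57 of the 71 members. Shown are the 250 bases before the start of RAB30 (the most upstream of its 3 start sites) and RAB9A, which are among the larger rises. Those of RAB40B and RAB11A, among the larger falls, are shown too. ARL14 and RAB39B, the largest rises, had no entry. RAB27A, RAB15 and RAB26 fell more than RAB11A and are not shown. Capitals mark matches on either strand to the motifs searched: AP-1 (TGANTCA), a cyclic AMP and ATF element (TGANNTCA), the E-box (CACGTG), the CCAAT box (CCAAT) and the GC box (GGGCGG).
RAB30 (chr11:83071898-83072147, strand -): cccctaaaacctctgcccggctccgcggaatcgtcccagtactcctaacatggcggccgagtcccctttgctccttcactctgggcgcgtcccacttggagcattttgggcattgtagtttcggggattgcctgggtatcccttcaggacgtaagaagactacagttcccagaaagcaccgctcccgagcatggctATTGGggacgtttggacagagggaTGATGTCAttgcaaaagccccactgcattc
RAB9A (chrX:13688878-13689127, strand +): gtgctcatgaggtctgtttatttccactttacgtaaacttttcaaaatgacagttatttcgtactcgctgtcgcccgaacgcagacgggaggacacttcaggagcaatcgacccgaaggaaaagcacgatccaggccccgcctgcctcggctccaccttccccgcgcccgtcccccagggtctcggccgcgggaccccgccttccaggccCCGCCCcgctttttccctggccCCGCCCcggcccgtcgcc
RAB40B (chr17:82698699-82698948, strand -): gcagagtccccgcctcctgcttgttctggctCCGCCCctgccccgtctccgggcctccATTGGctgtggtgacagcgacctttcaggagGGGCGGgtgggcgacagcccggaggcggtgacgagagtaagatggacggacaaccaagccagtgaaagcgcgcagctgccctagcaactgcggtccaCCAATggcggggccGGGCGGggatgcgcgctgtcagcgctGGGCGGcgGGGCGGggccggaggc
RAB11A (chr15:65869241-65869490, strand +): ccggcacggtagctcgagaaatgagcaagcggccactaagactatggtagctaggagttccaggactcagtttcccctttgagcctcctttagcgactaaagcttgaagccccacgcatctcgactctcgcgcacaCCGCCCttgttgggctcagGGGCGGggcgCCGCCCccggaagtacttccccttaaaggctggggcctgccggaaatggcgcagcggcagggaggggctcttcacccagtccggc

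RAB30 held an ATF-type match, TGATGTCA, from 30 to 23 bases before the start, and a CCAAT box. RAB9A held 2 GC boxes, RAB40B 5 GC boxes and 2 CCAAT boxes, and RAB11A 3 GC boxes. Over all 35116 windows of this length the AP-1 motif was in 6.57%, the ATF-type element in 10.1%, the E-box in 6.34%, the CCAAT box in 32.0% and the GC box in 42.6%. In the 82 windows of members these shares were 7.32%, 7.32%, 7.32%, 32.9% and 72.0%. Windows of all genes measured on the arrays held the GC box in 54.6%. Counted by gene, 18 members that rose and 27 that fell had a window, as did 14425 measured genes. An AP-1 match was in 1 of the 18 and 5 of the 27 (7.22% of measured genes), and the ATF-type element in 1 and 2 (11.3%). The E-box was in 3 and 3 (9.82%). A CCAAT box was in 4 and 12 (40.5%), and a GC box in 15 and 23 (63.6%). No difference between these counts was tested. A match is a string of letters and not a measured site.

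The group listed here as late endosome and lysosome genes held the largest rise after ARL14, that of RAB39B. Genes were placed by a list, and no compartment was measured. Of 9 measured, 4 rose and 2 fell (26.9% and 30.6% of all genes) and the median was 0.051. With hybridization-control centring 4 were higher and 5 lower, at -0.16. RAB39B, whose loss causes an X-linked intellectual disability with parkinsonism, was at -1.004, -1.20 and -1.10 in the control arrays and 1.15, 1.10 and 1.08 in the MAP30 arrays. The groups were far apart, and the rise of 2.21 ± 0.06 SE was 4.64-fold. Its 4 probe sets were all higher, at 1.64 to 2.88. RAB39A, its close relative, stood at -0.088 (adjusted p = 0.207 by limma) and its groups overlapped.

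RAB9A, which returns mannose 6-phosphate receptors from late endosomes to the Golgi, was at -0.84, -0.82 and -0.93 in the control arrays and 0.89, 0.87 and 0.82 in the MAP30 arrays. It rose 3.31-fold (1.73 ± 0.04 SE), on 1 probe set. RAB9B, of the same subfamily, was at -0.22, -0.13 and -0.25 in the control arrays and 0.26, 0.22 and 0.28 in the MAP30 arrays and rose 1.37-fold. RAB7A, the GTPase of late endosome maturation and lysosome fusion, was at -0.21, -0.21 and -0.22 in the control arrays and 0.19, 0.24 and 0.24 in the MAP30 arrays. Its groups were apart and it rose 1.35-fold, although 1 of its 3 probe sets, at 0.039, did not pass. RAB7B stood at 0.051 and did not pass.

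Lower in this group were RAB12, which takes transferrin receptors to lysosomes, and RAB34. RAB12 was at 0.26, 0.27 and 0.40 in the control arrays and -0.33, -0.40 and -0.30 in the MAP30 arrays. It fell by 0.66, with its 3 probe sets at -1.10 to -0.36, and RAB34 fell by 0.40. RAB36 (-0.18) did not pass, but passed at -0.26 without MAP30 replicate 1 and at -0.39 with hybridization-control centring.

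Early endosome genes split within the RAB5 subfamily. Of 10 measured, 5 were higher and 4 lower (26.9% and 30.6% of all genes) at a median of 0.078. This turned to 3 higher, 5 lower and -0.13 with hybridization-control centring. RAB5A, the GTPase of early endosome fusion, was at -0.48, -0.36 and -0.50 in the control arrays and 0.37, 0.42 and 0.38 in the MAP30 arrays. Every MAP30 array was higher, and the rise of 0.84 ± 0.05 SE (1.79-fold) was shared by all 4 probe sets, at 0.79 to 0.87. RAB5B and RAB5C, its close relatives in that step, fell, at -0.50 and -0.29, each in all of 3 probe sets. These directions were the same under all 4 scalings.

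RAB21, which acts in integrin endocytosis, was at -0.44, -0.45 and -0.44 in the control arrays and 0.46, 0.51 and 0.45 in the MAP30 arrays. It rose 1.89-fold with little spread between arrays. RAB31, a GTPase between the Golgi and endosomes, was at -0.19, -0.23 and -0.27 in the control arrays and 0.19, 0.27 and 0.25 in the MAP30 arrays and rose 1.38-fold, with its 4 probe sets at 0.42 to 0.50. RAB22A, the relative of RAB31, had a mean of -0.24 made of opposite probe sets, at -0.97 and 0.49, both of which passed. Its value is therefore uncertain, and it did not pass with poly-A-control centring (-0.073). RAB4A, the GTPase of fast recycling, fell by 0.59, with 1 of its 3 probe sets, at -0.18, not passing. ARF6, which acts in endocytosis and at the cell surface, was at -0.14, -0.085 and -0.13 in the control arrays and 0.13, 0.16 and 0.057 in the MAP30 arrays. Its groups were apart, but the rise of 0.23 was 0.025 and did not pass with hybridization-control centring. Of its 3 probe sets 1, at -0.056, did not pass, and the others were at 0.34 and 0.42. RAB14, of traffic between endosomes and the Golgi, was at 0.15, and at -0.060 with hybridization-control centring, where it did not pass. RAB20 (0.0067) did not pass.

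**Figure D3:**
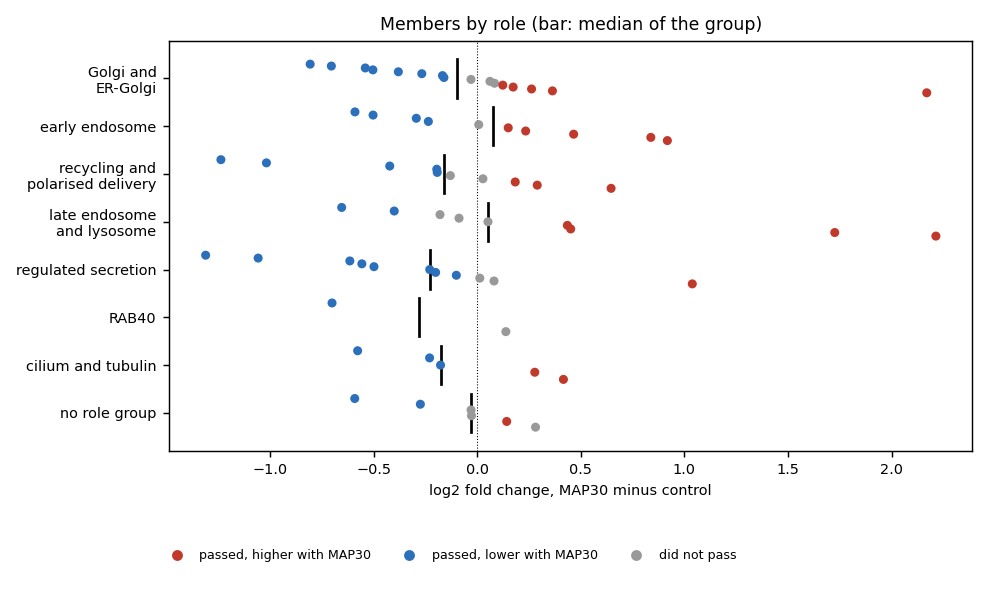
Log2 fold change of the 69 members other than ARL14 and RAB40B by role; each point is a gene, coloured by its call on the deposited scale, and the bar is the group's median. Regulated secretion has 8 falls and 1 rise of 11, and the late endosome and Golgi groups each hold a gene above 2. Over all genes 26.9% were higher and 30.6% lower. Roles are as listed here, and no compartment was measured.

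Of 10 recycling and polarised delivery genes 5 were lower and 3 higher (30.6% and 26.9% of all genes) at a median of -0.16. With poly-A-control centring 3 were lower and 4 higher. RAB11A, the main GTPase of the recycling endosome, was at 0.51, 0.55 and 0.48 in the control arrays and -0.50, -0.47 and -0.55 in the MAP30 arrays. It fell 2.03-fold (-1.02 ± 0.04 SE), with its 4 probe sets at -1.20 to -0.84. RAB11B, the other widely expressed member of that subfamily, fell by 0.19 with 3 of 7 probe sets lower. It stood at -0.030 and did not pass with poly-A-control centring.

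RAB15, also of recycling endosomes, was at 0.55, 0.40 and 0.61 in the control arrays and -0.97, -0.77 and -0.40 in the MAP30 arrays. All MAP30 arrays were below the controls but spread widely (SD 0.287), and the difference was -1.24 on 1 probe set. RAB8A and RAB8B, which act in delivery to the cell surface and the cilium, went opposite ways. RAB8A was at 0.26, 0.16 and 0.24 in the control arrays and -0.23, -0.22 and -0.16 in the MAP30 arrays, a difference of -0.42 on 1 probe set and of -0.26 with poly-A-control centring. RAB8B was at -0.33, -0.25 and -0.39 in the control arrays and 0.33, 0.34 and 0.29 in the MAP30 arrays, a rise of 0.65 with all 4 probe sets higher, at 0.26 to 1.15. Neither pair of groups overlapped, and both calls were kept under all 4 scalings.

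RAB17 (0.29) and RAB13 (0.18), of epithelial transport and junctions, rose, but hybridization-control centring gave 0.080 and -0.026, neither of which passed. RAB17 also did not pass without MAP30 replicate 1 (0.25). RAB25 (-0.20), an epithelial relative of RAB11A, was lower with overlapping groups. It did not pass without control replicate 1 (-0.15) or 3 (-0.19) or without MAP30 replicate 1 (-0.17) or 3 (-0.17). RAB10 (-0.13) and RAB35 (0.027) did not pass. Of the 5 probe sets of RAB35, 1 was lower, at -0.33. RAB10 rested on probe sets at -0.37, which was lower, and 0.11; without MAP30 replicate 3 the value was -0.047.

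Regulated secretion genes fell in 8 of 11 and rose in 1, with a median of -0.23. Over all genes 30.6% fell and 26.9% rose, and of the 69 members 47.8% fell. The group was not tested against these shares. With poly-A-control centring 5 fell and 2 rose at a median of -0.066. RAB27A, which docks exosome-bearing endosomes and lysosome-related organelles at the cell surface, was at 0.67, 0.69 and 0.59 in the control arrays and -0.71, -0.62 and -0.66 in the MAP30 arrays. The difference of -1.31 ± 0.04 SE (2.48-fold) was the largest fall in the family after RAB40B, and its 6 probe sets were all lower, at -1.66 to -1.20. RAB27B, its partner in that step, was at 0.64, 0.097 and 0.47 in the control arrays and -0.14, -0.097 and -0.22 in the MAP30 arrays. Here control replicate 2 lay close to the MAP30 arrays without overlap, and the difference was -0.56 ± 0.13 SE on 1 probe set (adjusted p = 0.00623 by limma). That of RAB27B did not pass without limma's pooled variance prior.

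RAB26, a GTPase of secretory granules, was at 0.56, 0.46 and 0.51 in the control arrays and -0.64, -0.54 and -0.46 in the MAP30 arrays. It fell 2.08-fold on 1 probe set. RAB3D, also of secretory granules, was at 0.19, 0.30 and 0.23 in the control arrays and -0.21, -0.73 and -0.19 in the MAP30 arrays. MAP30 replicate 2 was far lower than the other MAP30 arrays, and the difference of -0.62 had the largest SE of the family, 0.14 (adjusted p = 0.00595 by limma). Without the variance prior it did not pass. RAB3B fell by 0.50, with both probe sets lower. RAB3A (-0.23), the synaptic vesicle form, and RAB29 (-0.20), a partner of the kinase LRRK2, were lower, but stood at -0.066 and -0.038 and did not pass with poly-A-control centring.

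RAB38 and RAB32, which together serve melanosome formation, differed. RAB32 was at -0.49, -0.49 and -0.47 in the control arrays and 0.47, 0.60 and 0.59 in the MAP30 arrays. The control arrays were nearly identical and the rise was 2.05-fold (1.04 ± 0.04 SE) on 1 probe set. RAB38 was at -0.10, a call that 5 of the 6 left-out arrays ended (all but MAP30 replicate 3, with values from -0.11 to -0.091), as did centring on the array median (-0.084); it was 0.062 with poly-A-control centring. RAB37 (0.081) and RAB3C (0.012) did not pass, though RAB37 passed at 0.098 with arrays centred on their median.

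The Golgi group held ARF1, ARF3, ARF4 and ARF5. Of 16 measured, 8 were lower and 5 higher (30.6% and 26.9% of all genes) at a median of -0.10. This became 7 higher and 5 lower at 0.068 with poly-A-control centring. RAB30, a Golgi GTPase, was at -0.93, -1.11 and -1.23 in the control arrays and 0.99, 1.03 and 1.21 in the MAP30 arrays. The groups were far apart and it rose 4.5-fold (2.17 ± 0.09 SE), with its probe sets at 2.04 to 2.30. No other gene of this group rose by more than 0.36, the value of RAB33A.

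ARF3 and ARF5, which recruit coats at the Golgi, fell. ARF3 was at 0.38, 0.39 and 0.41 in the control arrays and -0.39, -0.49 and -0.36 in the MAP30 arrays. Its difference of -0.81 was shared by 4 probe sets that ranged widely, at -1.11 to -0.36. ARF5 was at 0.37, 0.34 and 0.33 in the control arrays and -0.40, -0.35 and -0.31 in the MAP30 arrays, a difference of -0.70 with 4 probe sets at -0.83 to -0.64. ARF1, the main activator of COPI at the Golgi, was at 0.20, 0.18 and 0.17 in the control arrays and -0.20, -0.22 and -0.17 in the MAP30 arrays. The groups were apart, at a difference of -0.38, which was -0.59 (hybridization-control centring) and -0.22 (poly-A-control centring). ARF4 rose by 0.26, but by 0.053 and without passing with hybridization-control centring.

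RAB1A, the GTPase of transport from the endoplasmic reticulum to the Golgi, was at 0.10, 0.18 and 0.14 in the control arrays and -0.13, -0.087 and -0.17 in the MAP30 arrays. It fell by 0.27, but stood at -0.10 and did not pass with poly-A-control centring. Of its 4 probe sets 1, at -0.081, did not pass. Probe sets shared with RAB1B, kept out of this value, were at 0.062, 0.065 and 0.16, the last called higher. RAB6A, of retrograde transport at the Golgi, was at 0.079, 0.11 and 0.083 in the control arrays and -0.040, -0.091 and -0.084 in the MAP30 arrays. Its difference of -0.16 rested on 4 of 8 probe sets and was gone with poly-A-control centring (0.0024). ARL1, which brings golgin tethers to the trans-Golgi, fell by 0.54, with all 8 probe sets lower, at -0.67 to -0.37. RAB2A, of traffic between the endoplasmic reticulum and the Golgi, fell by 0.50 in all 4 probe sets, while its relative RAB2B was at 0.17 and at -0.036 with hybridization-control centring.

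RAB18, a GTPase of the endoplasmic reticulum and lipid droplets, had the most probe sets, 10. They went opposite ways, 3 higher and 1 lower, at -0.31 to 0.73. Its mean of 0.12 passed, but was 0.014 with the median over probe sets and -0.086 with hybridization-control centring, and it did not pass without control replicate 3 (0.12). RAB41 (-0.17), on 1 probe set, was lower with overlapping groups (adjusted p = 0.0479 by limma). That probe set did not pass in the limma fit over probe sets. The call was lost without control replicate 1 (-0.13) or 2 (-0.16), without MAP30 replicate 2 (-0.12) or 3 (-0.17), and with arrays centred on their median (-0.15). RAB6B (0.061), RAB19 (0.083) and RAB33B (-0.031) did not pass.

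**Figure D4:**
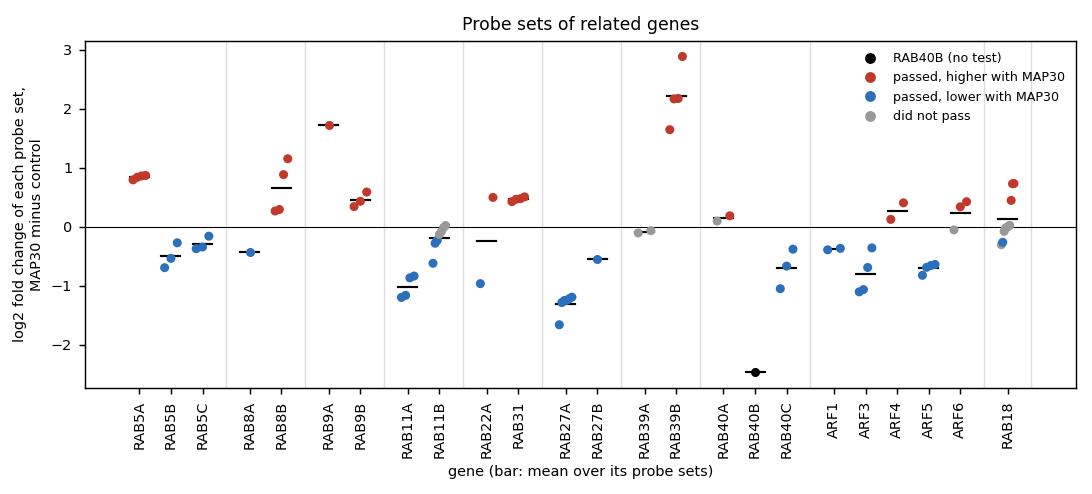
Log2 fold change of each probe set of related genes, MAP30 minus control, with the mean over a gene's probe sets as a bar and calls from a limma fit over all 49395 probe sets. All probe sets of RAB5A lie above and all of RAB5B and RAB5C below 0, whereas those of RAB22A and RAB18 lie on both sides.

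Among cilium and tubulin genes 2 of 5 were higher and 3 lower (26.9% and 30.6% of all genes), with 1 lower under poly-A-control centring. ARL3, which unloads lipidated cargo in cilia, fell by 0.58, with its 3 probe sets at -0.73 to -0.39. ARL2, a cofactor of tubulin folding, was at 0.20, 0.098 and 0.062 in the control arrays and -0.12, -0.035 and -0.17 in the MAP30 arrays. Its difference of -0.23 rested on 1 of 2 probe sets and stood at -0.067, without passing, with poly-A-control centring. ARL6, which recruits the BBSome coat of ciliary traffic, rose by 0.42 with 3 of 4 probe sets higher. RAB28 (0.28) rose and RAB23 (-0.18), a brake on Hedgehog signalling, fell, but they stood at 0.069 (hybridization-control centring) and -0.014 (poly-A-control centring) and did not pass there.

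Of 6 members outside these groups 1 was higher and 2 lower (26.9% and 30.6% of all genes). RAB42 was at 0.21, 0.37 and 0.32 in the control arrays and -0.21, -0.30 and -0.36 in the MAP30 arrays, a difference of -0.59 on 1 probe set. ARL15 fell by 0.28, but stood at -0.11 without passing with poly-A-control centring. ARL16 rose by 0.14 on 1 of 2 probe sets, and was -0.067 with hybridization-control centring. ARL9 (0.28), ARL11 (-0.028) and RAB6D (-0.030) did not pass; ARL9 passed at 0.37 without MAP30 replicate 2 and stood at 0.15 without MAP30 replicate 1. ARL11, an ARF-like gene of macrophages and a relative of ARL14, had overlapping groups.

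Of 52 members with more than 1 probe set, 10 had every probe set called higher and 14 had every probe set called lower, in a limma fit over probe sets. The share of all genes with such agreement was not counted, so nothing about the family is read from these counts. RAB18 and RAB22A alone had probe sets that passed in opposite directions. The other 19 members had 1 probe set, among them ARL14, RAB40B, RAB9A, RAB32, RAB15 and RAB26. Close relatives differed in direction within the RAB5 and RAB8 groups named above and among the ARF genes. So did RAB2A and RAB2B, RAB31 and RAB22A, and RAB32 and RAB38. The calls of RAB2B, RAB22A and RAB38 were lost under some scaling. RAB9A with RAB9B rose together. RAB27A with RAB27B, RAB11A with RAB11B, and RAB3A, RAB3B and RAB3D fell together, as did RAB40C with RAB40B, the latter without a test. The calls of RAB11B and RAB3A were lost under some scaling.

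Genes that regulate or read these GTPases also moved both ways. Of 167 measured in 7 lists, 52 rose (31.1%) and 75 fell (44.9%), against 26.9% and 30.6% of all genes. The median was -0.077, and -0.019 over all genes. The lists were chosen with earlier results known, so nothing is read from their counts. Centring on the hybridization controls gave 31 higher and 103 lower. Centring on the poly-A controls gave 72 and 47. Over all genes the share of calls that were rises moved likewise, from 46.8% to 21.1% and 70.3%.

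Of 6 prenylation and GDI genes 1 rose and 4 fell (26.9% and 30.6% of all genes). RABGGTB, the catalytic subunit that adds prenyl groups to RAB proteins, rose 2.9-fold, while RABGGTA, its partner subunit, was at -0.13. RABIF (-0.63), RABAC1 (-0.48) and GDI2 (-0.45), which returns RAB proteins from membranes, were lower. CHML, an escort protein, did not pass (0.088).

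RAB exchange factors were 15 higher and 17 lower of 45 (26.9% and 30.6% of all genes). TRAPPC6B (2.4-fold) and RAB3GAP2 (1.95-fold), an activator of RAB18, rose, as did DENND4A (0.57). TRAPPC1, of the TRAPP complex like TRAPPC6B, fell 2.04-fold, and DENND2A (-0.88) and RIN2 (-0.77), an activator of RAB5, were lower. With poly-A-control centring this list had 20 higher and 8 lower, where 70.3% of calls over all genes were rises.

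TBC-domain proteins, most of which end RAB activity, were 8 higher and 18 lower of 33 (26.9% and 30.6% of all genes). TBC1D2, which acts on RAB7, fell 2.48-fold, and TBC1D14 (-0.90) and TBC1D1 (-0.82) were lower. TBC1D19 (2.54-fold), TBC1D22B (0.95) and TBC1D31 (0.84) were higher, the last with 2 probe sets higher and 1 lower. Falls outnumbered rises under all 4 scalings here, as in the prenylation and GDI list. The poly-A controls gave 9 higher and 14 lower, and the hybridization controls 6 and 24. Over all genes, rises were 70.3% and 21.1% of calls there. Array-median centring gave 8 and 17, and quantile normalization 9 and 18, against 49.3% and 50.2%. The list was chosen with earlier results known and was not tested against these shares, so nothing is read from the excess.

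RAB effectors were 8 higher and 12 lower of 26, and 12 higher and 8 lower with poly-A-control centring. EEA1, the tether that RAB5 recruits to early endosomes, rose 2.91-fold with all 3 probe sets higher. PLEKHM1, which binds RAB7 in lysosome fusion, rose 2.49-fold, and SYTL2 (0.71), an effector of RAB27, also rose. SYTL4, another RAB27 effector that acts in exocytosis, fell 2.51-fold. BICD2, a dynein adaptor recruited by RAB6, was at -0.81 and RILPL2 at -0.78.

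**Figure D5:**
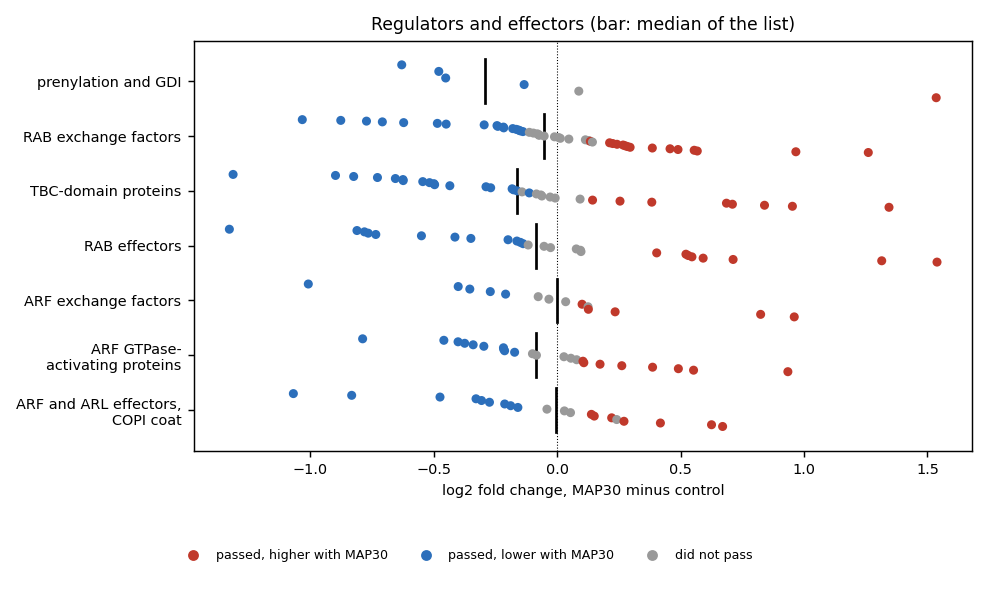
Log2 fold change of 167 regulators and effectors by list; each point is a gene, coloured by its call on the deposited scale, and the bar is the list's median. Medians lie between -0.29 and 0.00, and rises and falls occur in every list. With poly-A-control centring 6 of the 7 medians are above 0, and that of all genes is 0.14.

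ARF exchange factors were 5 higher and 5 lower of 14 (26.9% and 30.6% of all genes). ARFGEF2 (0.96), an activator of ARF1 at the trans-Golgi, and CYTH4 (0.82) rose, the latter with 2 of 4 probe sets higher. PSD4, an activator of ARF6, fell 2.01-fold. IQSEC2 (-0.40) and IQSEC1 (-0.35) were lower, the former not without the variance prior. GBF1, the activator of ARF1 at the early Golgi, was at 0.23, a call lost without control replicate 2 (0.17) or 3 (0.21), without MAP30 replicate 2 (0.24) or 3 (0.20), and with hybridization-control centring (0.026).

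ARF GTPase-activating proteins were 8 higher and 10 lower of 23 (26.9% and 30.6% of all genes). ARAP2 (0.93), SMAP2 (0.55) and ACAP1 (0.49) rose, and ARFGAP3 (-0.79), AGAP1 (-0.46) and AGAP3 (-0.40) fell. ARF and ARL effectors with the COPI coat were 7 higher and 9 lower of 20, beside the same shares of all genes. GGA2 (0.67), a clathrin adaptor bound by ARF proteins, rose with 3 probe sets higher and 1 lower, and ARFIP2 (0.63) and ARFIP1 (0.42) rose. COPG2, a COPI subunit, fell 2.1-fold. UNC119 (-0.83) and PDE6D (-0.47), carriers of lipidated proteins that ARL3 unloads, fell, while UNC119B, a relative of UNC119, was at -0.041 and did not pass. With poly-A-control centring these 2 lists had 11 higher and 5 lower, and 11 higher and 6 lower. Over all genes 70.3% of calls were rises there.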

How the data were processed

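RNA of 3 control and 3 MAP30 samples was amplified by 3' in vitro transcription and measured on Affymetrix arrays, per the labels' protocols. The authors deposited log2 values for 49395 probe sets, and RMA and MAS5 appear, with no role, in the submitters' processing notes. Every probe set's median over the 6 arrays is 0 to within 5.0e-07, and the sources used here do not give the log base. The platform annotation gave a single gene symbol for 44988 probe sets; no symbol differed from the RefSeq table. Probe sets of a gene were averaged. MAP30 was compared with control by limma 3.58.1 (R 4.3.3; lmFit and eBayes, two-sided, no covariates), adjusted by Benjamini-Hochberg over 18132 genes at 0.05. The fit was tested on simulated data.

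The members and lists were chosen with earlier results of these data known. Per-array values are given for ARL14, RAB40B, the 10 largest rises and 10 largest falls that passed with groups apart, and a fixed set of 12 genes, of which 11 were measured. From each regulator list up to 3 rises and 3 falls are named; others were named after their values were seen. Alternatives were array scaling, probe set choice, variance prior, a replicate block, a fold minimum and leaving out each array. Filters on dim probe sets were not used, since levels were removed. Tables were made with Python 3.11.15, pandas 2.3.3 and numpy 2.4.6 and drawn with matplotlib 3.10.9.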

Additional observations from a re-analysis of the deposited data

How the results depend on the processing

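Scaling of the arrays moved the counts and the median. Centring on 18 hybridization control probe sets, which rose by 0.21 with MAP30, gave 12 members higher and a median of -0.31, and 31 regulators higher. Centring on 24 poly-A control probe sets (-0.16) gave 21 members lower and a median of 0.062, and 47 regulators lower. Quantile normalization gave a median of -0.076. Of calls that were rises, members had 38.9% as deposited, 21.8% by the hybridization controls and 58.8% by the poly-A controls; all genes had 46.8%, 21.1% and 70.3%. Requiring at least 1.5-fold left 7 members higher and 11 lower, and 17 regulators higher and 22 lower, by construction.

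Leaving out 1 array in turn gave 20 to 22 members higher, 30 to 32 lower and medians from -0.13 (without control replicate 2) to -0.085, and 45 to 50 regulators higher and 69 to 74 lower. Of 426 member results under left-out arrays, 15 lost and 3 gained a call and 0 changed sign with a call.

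These values changed sign where a call stood on either side. With hybridization-control centring they were ARL16 (-0.067), RAB13 (-0.026), RAB14 (-0.060), RAB18 (-0.086), RAB20 (-0.20), RAB2B (-0.036), RAB35 (-0.18), RAB3C (-0.20) and RAB7B (-0.16). With poly-A-control centring they were RAB38 (0.062), RAB6A (0.0024) and RAB6D (0.13), and RAB10 (0.11) when only _at and _a_at probe sets were used. Of members that had not passed, 10 were called lower by the hybridization controls and 9 were called higher by the poly-A controls. Beyond the shift that each scaling applies, the cause was not tested.

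The labels do not say whether same-numbered arrays are paired. Their deviations from the group means correlated at -0.04, 0.07 and 0.01 over genes. No shared deviation was thus seen, which cannot settle whether the arrays were paired. With the replicate block 22 members were higher and 31 lower, and 48 regulators higher and 70 lower. RAB25, RAB38 and the regulator GBF1 did not pass in that fit and ARL9 did. The non-overlap count, added after seeing the data, is in the report. Signal over background could not be judged, so a weak probe set cannot be told from an unchanged gene.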

Other observations

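Probe sets shared by a member and another gene were kept out of the gene values. Both probe sets of RAB24 and MXD3 were higher, at 0.72 and 0.66; MXD3 encodes a MYC network repressor, and the probe sets do not say which gene they follow. Those of RAB43 with the readthrough ISY1-RAB43 stood at -1.68, which passed, and -0.18, which did not. The probe sets of RAB1A and RAB1B were at 0.062, 0.065 and 0.16, the last passing. Those of RAB6A, RAB6C and RAB6D were lower, at -0.40 and -0.27. RAB4B with MIA-RAB4B was at -0.16 and did not pass.

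Related GTPases outside the name rule, listed after results were seen, were 3 higher and 5 lower of 9 (26.9% and 30.6% of all genes). RABL6 (-1.02), SAR1A (-0.75), which starts COPII coat assembly, and IFT22 (-0.73), of intraflagellar transport, were lower, while SAR1B, the close relative of SAR1A, rose by 0.30. RAN, the GTPase of nuclear transport, was at -0.13, with 3 probe sets lower and 1 higher.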
